A study of Caenorhabditis elegans with 9 samples.

Results

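The shortest cassette exons of *C. elegans* are described here: 194 exons of 60 nt or less among the 786 cassette exons of the *smg-1* comparison, chosen by length alone. They comprise 61 microexons of at most 30 nt and 133 exons of 31 to 60 nt, in 185 genes by the names deposited. The rest are 591 longer exons and 1 exon with inverted coordinates. The mutants are *smg-1* (TR1331) KO and *smg-2* (CB4043) KO, each a single strain with 3 libraries, set against 3 libraries of wild-type worms (WT). All 9 libraries carry the strain label N2 and were made from polyA RNA of whole animals, synchronized at the L4 larval stage per the study's methods. Whole animals hold every tissue, so a change of splicing in a cell type and a change in how much RNA that cell type gives cannot be told apart.

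A cassette exon is either spliced into the mRNA or skipped together with its flanking introns. A length that is a multiple of 3 (triplet) leaves the reading frame downstream unaltered, whereas a non-triplet exon shifts it. A shifted frame, or a stop codon in the exon itself, can place the end of translation far upstream of the last exon junction, and such mRNAs are degraded by nonsense-mediated mRNA decay (NMD). The SMG-1 kinase phosphorylates the SMG-2 RNA helicase in this pathway, and mRNAs it degrades are stabilised when either gene is lost. Microexons encode only a few amino acids, and in mammals many of them are included mainly in neurons.

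PSI (percent spliced in) is the percentage of an event's junction usage that includes the exon. The group labels of the read counts conflicted with those of the usage values, and every direction given here rests on the usage labels. For some exons the mutant labels also conflicted with each other. Of the short exons, 139 had different values under the *smg-2* and *smg-1* labels, 33 were listed for *smg-1* only, and 22 (9 microexons and 13 of 31 to 60 nt) carried the same values under both labels. Across all lengths there were 122 exons of this last kind, and the deposited mark for exons also found in *smg-2* was on none of them. Their junction reads divided over mutant replicates 1, 2 and 3 as 32.0%, 50.3% and 16.9% (medians of 118 exons). The corresponding medians were 32.0%, 49.7% and 18.2% for *smg-2* over 482 exons and 47.7%, 30.2% and 21.9% for *smg-1* over 498 exons. The main counts of calls in *smg-1* are therefore given with and without these exons, and their values are named below as standing under both mutant labels.

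Depth differed between libraries. Junction reads over the 172 short exons with values of *smg-1* itself summed to 68979, 43454 and 32076 in *smg-1* replicates 1 to 3 and to 43712, 18167 and 32607 in WT. Over the 139 short exons with values of *smg-2* itself they summed to 17907, 28158 and 10468 in *smg-2* and to 41615, 17426 and 30942 in WT. WT replicate 2 was the shallowest of its group, with a median of 42.5 reads per exon and 47 of 172 exons under 20 reads. A further property of the tables touches every change below. At all lengths the *smg-1* means of PSI spanned 5.03% to 95%, and the *smg-2* means 5.39% to 94.6%, but was not limited in this way in WT, where 35 of 193 short exons had a mean below 5% or above 95%.

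The following microexons carry results described below and are shown with 20 nt of the upstream intron and 12 nt of the downstream intron (WBcel235 genome, 5′ to 3′ on the strand of the gene). Capitals mark the exon. The set holds the shortest exon, the microexon called in *smg-2* and 5 non-triplet microexons.
*clp-1* 9 nt exon, chrIII:7985343-7985351, plus strand: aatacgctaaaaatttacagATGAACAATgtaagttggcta
*shk-1* 20 nt exon, chrII:9767594-9767613, plus strand: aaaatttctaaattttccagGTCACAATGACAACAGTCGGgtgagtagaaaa
*kvs-4* 26 nt exon, chrIII:11023651-11023676, plus strand: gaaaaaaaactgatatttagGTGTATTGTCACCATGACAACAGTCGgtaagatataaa
*kvs-5* 24 nt exon, chrIV:750037-750060, plus strand: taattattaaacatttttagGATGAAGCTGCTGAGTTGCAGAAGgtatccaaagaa
*F58F12.2* 28 nt exon, chrII:6387872-6387899, minus strand: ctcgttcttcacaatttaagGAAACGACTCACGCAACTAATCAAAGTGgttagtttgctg
*aqp-2* 28 nt exon, chrII:9259590-9259617, minus strand: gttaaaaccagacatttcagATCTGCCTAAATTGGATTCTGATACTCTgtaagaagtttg
*tnt-3* 28 nt exon, chrX:7940797-7940824, minus strand: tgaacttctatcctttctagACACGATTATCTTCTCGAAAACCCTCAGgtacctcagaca

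The next set shows exons of 31 to 60 nt whose inclusion differed between mutants and wild-type, in the same format. The first 5 rose in at least 1 mutant and the other 4 fell.
*mig-22* 33 nt exon, chrIII:8766524-8766556, minus strand: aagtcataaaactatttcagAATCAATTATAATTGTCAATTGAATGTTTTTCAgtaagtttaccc
*Y71H2AM.14* 40 nt exon, chrIII:2746391-2746430, minus strand: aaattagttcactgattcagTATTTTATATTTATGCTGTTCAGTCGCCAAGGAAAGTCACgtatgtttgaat
*F25B4.8* 41 nt exon, chrV:5690316-5690356, minus strand: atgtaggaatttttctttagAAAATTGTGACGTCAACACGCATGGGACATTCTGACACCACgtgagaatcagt
*ttr-11* 40 nt exon, chrV:20604052-20604091, plus strand: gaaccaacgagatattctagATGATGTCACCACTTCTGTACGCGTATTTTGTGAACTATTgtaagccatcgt
*ckc-1* 58 nt exon, chrX:3578546-3578603, plus strand: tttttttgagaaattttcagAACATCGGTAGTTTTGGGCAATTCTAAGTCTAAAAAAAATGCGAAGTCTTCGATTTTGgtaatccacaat
*ptb-1* 34 nt exon, chrII:10688477-10688510, plus strand: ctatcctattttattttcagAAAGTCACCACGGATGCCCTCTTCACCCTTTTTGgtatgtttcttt
*ugt-2* 43 nt exon, chrV:10399392-10399434, plus strand: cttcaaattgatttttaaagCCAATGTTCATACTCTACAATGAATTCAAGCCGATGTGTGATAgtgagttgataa
*ZK856.5* 46 nt exon, chrV:10189270-10189315, minus strand: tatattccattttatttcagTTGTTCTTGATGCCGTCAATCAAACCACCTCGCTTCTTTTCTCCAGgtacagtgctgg
*fubl-1* 52 nt exon, chrV:10238292-10238343, minus strand: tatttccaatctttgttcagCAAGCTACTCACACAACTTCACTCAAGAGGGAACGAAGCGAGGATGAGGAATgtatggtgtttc

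Lengths of the short exons clustered at multiples of 3. The commonest were 39 nt and 54 nt with 15 exons each, then 24 nt and 33 nt with 13 exons each. The shortest were the 9 nt exons of *clp-1*, which encodes a calpain protease, and *unc-13*, which encodes a regulator of synaptic vesicle priming. Of the 193 exons with values in at least 2 libraries of each group, 8 of 61 microexons were non-triplet (13.1%, Wilson 95% interval 6.8% to 23.8%), as were 29 of 132 exons of 31 to 60 nt (22.0%, 15.8% to 29.8%). Among 589 longer exons 287 were non-triplet (48.7%, 44.7% to 52.8%). These intervals treat exons as independent and cover counting error only. The exon left out, of 56 nt in F55A11.8, had PSI values of 55.6%, 58.3% and 50.0% in *smg-1* but a single read in WT.

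**Figure D1:**
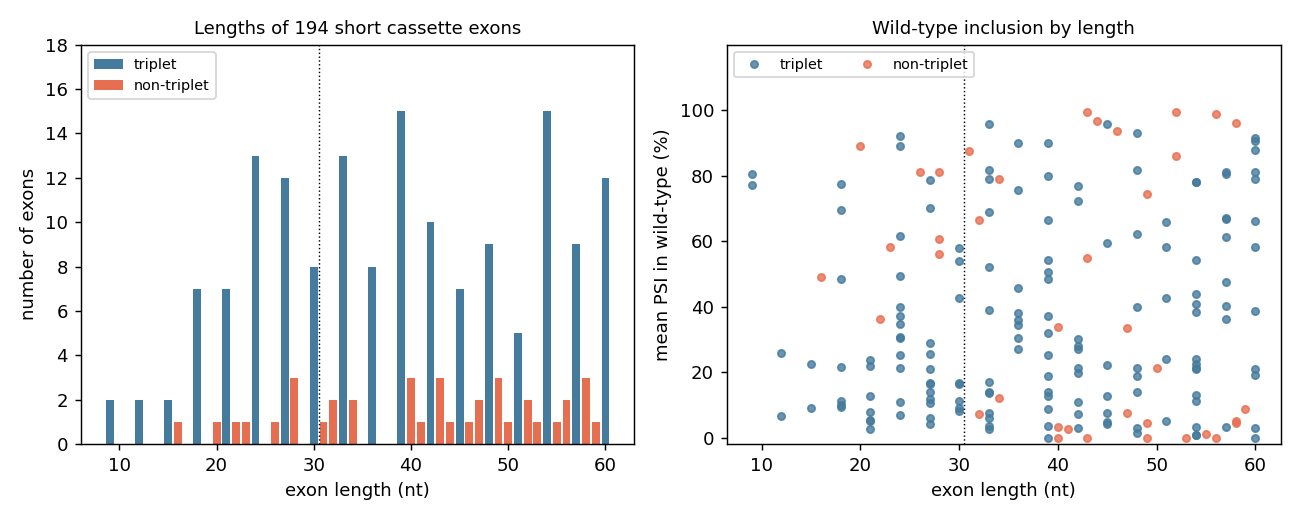
Left, number of short cassette exons at each length in nt, with non-triplet exons stacked on triplet ones. Right, mean WT PSI (%) of each exon against its length, 1 point per exon. The dotted line separates microexons from exons of 31 to 60 nt, and the tallest bars stand at 39 nt and 54 nt with 15 exons each.

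Short exons were mostly skipped, and longer ones mostly included. Median PSI of microexons was 22.9% in *smg-1* and 25.2% in WT, and that of 31 to 60 nt exons was 33.3% in *smg-1* and 32.7% in WT. For longer exons the medians were 64.7% in *smg-1* and 70.2% in WT. Without the exons that stand under both labels, the *smg-1* and WT medians were 25.8% and 25.7% for microexons and 32.5% and 31.9% for 31 to 60 nt. In the *smg-2* comparison the corresponding medians were 28.9% and 25.6% for 44 microexons and 36.7% and 37.2% for 95 exons of 31 to 60 nt. In WT, 13 of 61 microexons had a PSI below 10%, 47 lay between 10% and 90% and 1, in *kvs-5*, lay above 90%. The 31 to 60 nt exons divided into 34, 86 and 12, and the longer exons into 110, 318 and 161. Over the exons, the median WT PSI of microexons was 7.47 points below that of 31 to 60 nt exons, a difference of −7.47 that became −5.1 without WT replicate 2 and −4.34 without WT replicate 3. In the single WT libraries the medians were 26.7%, 23.5% and 28.6% for microexons and 31.6%, 27.8% and 31% for 31 to 60 nt.

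Frame went with different levels in the 2 length classes. Triplet microexons had a median WT PSI of 21.6% (n = 53) and the 8 non-triplet microexons one of 59.5%, with none below 10%. At 31 to 60 nt the order turned, with 34.4% for 103 triplet exons and 21.2% for 29 non-triplet exons. Of these 29, 13 were below 10% and 6 above 90% in WT. Replicate error was wide for all of them: where WT PSI lay between 10% and 90%, the median SD over 3 libraries was 8.28 points for microexons, 7.91 points at 31 to 60 nt and 7.67 points for longer exons.

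Few microexons differed from wild-type in either mutant, as was the case for triplet exons of other lengths. In the *smg-1* comparison 1 of 61 microexons was called (1.64%), against 12.8% of the 782 exons of all lengths, where a call required a difference of mean PSI above 10 points and an adjusted p below 0.05 (limma on logit PSI, Benjamini-Hochberg over all exons). In the *smg-2* comparison 1 of 44 was called, against 15.1% of 498 exons. Of the 61 microexons 53 are triplet, and none of these was called in *smg-1*, against 4.85% of triplet exons of 31 to 60 nt and 5.68% of triplet exons of all lengths. In *smg-2* 1 of 40 triplet microexons was called, against 3.95% and 4.00%. In *smg-1* 36 of 61 microexons differed from WT by at most 5 points and 47 by at most 10 points, and the changes ran from −40.3 to 27.3 points. Without the exons under both labels 1 of 52 was called, and 30 and 40 were within 5 and 10 points. The changes then ran from −30.9 to 27.3 points. In *smg-2* 22 of 44 were within 5 points and 36 within 10 points.

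The *clp-1* exon of 9 nt, a deeply covered microexon, had similar means in the 3 groups. Its PSI was 77.9%, 77.4% and 80.0% in *smg-1*, 77.3%, 81.4% and 79.4% in *smg-2*, against 80.2%, 68.2% and 82.6% in WT, at 394 to 1634 junction reads per library. All 3 groups overlapped. Spread was widest in WT (SD 7.7 points, against 1.37 in *smg-1* and 2.02 in *smg-2*), where replicate 2 was lowest, at 516 reads. The 18 nt exon of F46H5.7 was included at a low level, 13.8% ± 1.54 in *smg-1*, 12.8% ± 1.70 in *smg-2* and 11.3% ± 2.53 in WT (SD, n = 3 each). The 18 nt exon of *unc-44*, an ankyrin that organises the neuronal membrane skeleton, averaged 18.7% ± 3.24 in *smg-1*, 22.4% ± 6.02 in *smg-2* and 21.6% ± 1.67 in WT (SD, n = 3 each). None of these passed the test in either mutant.

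Group means were also close in other microexons with many reads. The 24 nt exon of *pqn-52*, a gene of the prion-like Q/N-rich class, had a mean PSI of 35.9% in *smg-1*, 34.9% in *smg-2* and 30.3% in WT, and in *smg-2* replicate 2 stood apart at 47.3% against 29.4% and 28%. The 21 nt exon of *arx-3*, an Arp2/3 complex subunit, averaged 11.1% in *smg-1*, 9.78% in *smg-2* and 7.96% in WT. The 30 nt exon of *mua-3*, a transmembrane protein that attaches epidermis to cuticle, averaged 17.0%, 15.5% and 16.5% in the same order. For exons with 1 set of values under both mutant labels, the mutant and WT means were 22.9% and 22.6% for 15 nt in *rme-1*, an endocytic recycling protein, and 73.5% and 70.0% for 27 nt in *tcer-1*, a transcription elongation factor.

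**Figure D2:**
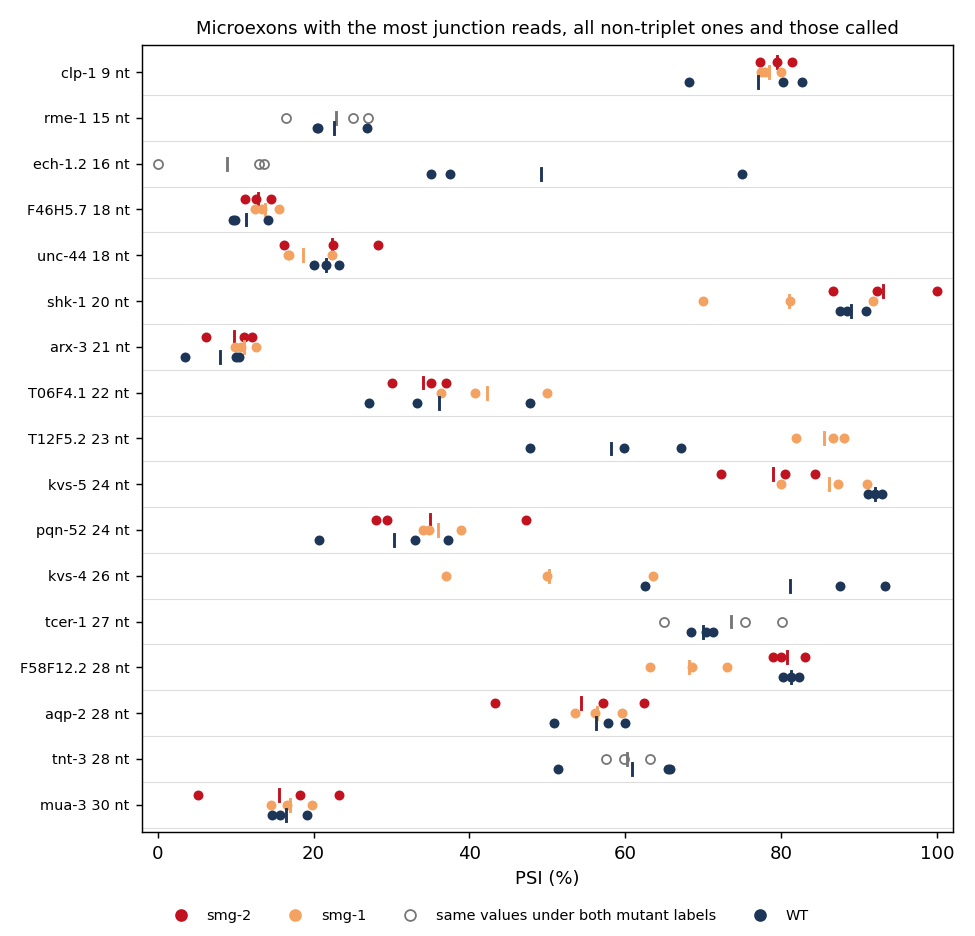
PSI (%) in each library for the 10 microexons with the most junction reads, all 8 non-triplet microexons and those called, ordered by length. Points are libraries, vertical ticks are group means, and open circles are values that stand under both mutant labels. Groups overlap in most rows, and in *kvs-5* all 3 *smg-2* points lie below all 3 WT points.

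The exceptions were in T12F5.2 and *kvs-5*. The 23 nt exon of T12F5.2, a non-triplet one, had PSI values of 81.9%, 88.0% and 86.6% in *smg-1* and 59.8%, 47.7% and 67.2% in WT, and was not listed for *smg-2*. The groups did not overlap and the exon rose by 27.3 points (adjusted p = 0.0142, limma). The isoform with this exon is predicted to stop after 51 amino acids, against 329 without it. That call was lost when *smg-1* replicate 2 or 3 was left out, with a highest adjusted p of 0.0643. The 24 nt triplet exon of *kvs-5*, a voltage-gated potassium channel, had 80.5%, 72.3% and 84.3% in *smg-2* and 91.1%, 92.9% and 92.0% in WT. It fell by 13 points (adjusted p = 0.0394, limma), and its *smg-1* values were 87.3%, 91.0% and 80.0% (adjusted p = 0.275). The *smg-2* call was lost without any single library other than *smg-2* replicate 3, at adjusted p of up to 0.108. The second short exon of this gene, of 54 nt, averaged 43.9% in *smg-1*, 43.8% in *smg-2* and 54.2% in WT and was called in neither.

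Beside T12F5.2, 7 microexons were non-triplet and none of them passed the test. *shk-1* and *kvs-4* both encode voltage-gated potassium channels, and their exons of 20 nt and 26 nt share the run ATGACAACAGTCG of 13 nt. Read in the annotated frame, each exon ends inside the potassium channel signature, the stretch of the pore that selects for potassium, which starts at exon base 13 in *shk-1* and at base 20 in *kvs-4* and runs on into the next exon. Skipping either exon removes the start of the signature and shifts the frame after it. The *shk-1* exon was included at 70.0%, 81.1% and 91.8% in *smg-1*, 86.7%, 92.3% and 100% in *smg-2*, against 87.5%, 90.9% and 88.4% in WT, so the groups overlapped. The *kvs-4* exon had 37.0%, 63.6% and 50.0% in *smg-1* and 93.3%, 62.5% and 87.5% in WT, and was not listed for *smg-2*. This difference of −30.9 points rested on 8 to 27 reads per library and did not pass (adjusted p = 0.101, limma).

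Skipping the 28 nt exon of F58F12.2 is predicted to leave 8 amino acids, against 81 with it. Its PSI was 73.0%, 63.1% and 68.5% in *smg-1*, 83.0%, 79.0% and 80.0% in *smg-2*, against 80.2%, 81.2% and 82.3% in WT. All *smg-1* values lay below all WT values, yet the difference of −13.1 points did not pass (adjusted p = 0.0723, limma). The 28 nt exon of *aqp-2*, which encodes an aquaporin, averaged 56.4% in *smg-1*, 54.3% in *smg-2* and 56.2% in WT. The inclusion isoform of *aqp-2* ends in this exon at 285 amino acids, against 290 without it, and neither stop is predicted to be premature. For *tnt-3*, a troponin T of muscle, the inclusion isoform is predicted to carry a premature stop, and PSI was 59.8%, 57.5% and 63.2% under both mutant labels and 65.5%, 65.7% and 51.3% in WT. The 22 nt exon of T06F4.1 averaged 42.3% in *smg-1*, 34.0% in *smg-2* and 36.1% in WT. The 16 nt exon of *ech-1.2* had 13%, 0% and 13.6% under both mutant labels and 35.0%, 37.5% and 75% in WT, at 8 to 46 reads, and its difference of −40.3 points did not pass (adjusted p = 0.0723, limma).

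Among triplet microexons the lowest and highest changes in each mutant came with few reads. Some smaller changes came with more reads. The *nmy-1* exon of 21 nt was 13.6 points higher than in WT under both mutant labels, at a median of 369 reads (adjusted p = 0.164, limma). The *kvs-5* exon of 24 nt, called above, fell by 13 points in *smg-2* at a median of 67 reads. In *smg-2* the lowest change, −44.5 points, was that of the 24 nt exon of C30D11.5, annotated as *egl-2*, a voltage-gated potassium channel. Its PSI was 73.7%, 61.5% and 88.9% in *smg-1*, with 36.4%, 40.0% and 57.1% in *smg-2* at 7 to 11 reads, and 88.5%, 100% and 78.6% in WT. All *smg-2* values lay below all WT values, but the difference did not pass (adjusted p = 0.0579, limma). The 27 nt exon of *kvs-1*, also a potassium channel, had the highest change of a triplet microexon, 16.5 points in *smg-1* with 21.4 points in *smg-2*. One WT library had only 3 reads for it and a PSI of 0%, and neither difference passed (adjusted p = 0.364 and 0.352). In *smg-1* the lowest was the 27 nt exon of *frpr-9*, a predicted neuropeptide receptor, at 58.3%, 56.2% and 40.0% in *smg-1* and 73.3%, 100% and 62.5% in WT (adjusted p = 0.298).

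Some genes had a pair of short exons with unlike levels. In W07E11.1 the 30 nt exon averaged 64.5% in *smg-1*, 73.1% in *smg-2* and 57.9% in WT, while the 27 nt exon averaged 5.14% under both mutant labels and 4.16% in WT. In *best-22*, a bestrophin gene, the 42 nt exon averaged 62.9%, 67.8% and 72.4% in *smg-1*, *smg-2* and WT, against 19.8%, 26.8% and 16.9% for the 33 nt exon. *unc-80* encodes a subunit of the sodium leak channel complex. Its 36 nt exon averaged 46.4%, 48.6% and 34.4% in the same order, and its 27 nt exon 9.50%, 6.52% and 13.8%. *unc-31*, the CAPS protein of dense-core vesicle release, has a pair of 36 nt exons, the first with a mean PSI of 45.0% in *smg-1* and 30.5% in WT. The second averaged 78.6% in *smg-1*, 60.5% in *smg-2* and 75.7% in WT (adjusted p = 0.348 in *smg-2*, limma). None of these 8 exons was called.

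Exons of 31 to 60 nt held nearly all of the calls. In *smg-1* 19 of 132 were called (10 rose, 9 fell), which with T12F5.2 gives 20 of 193 short exons, 11 that rose and 9 that fell. Over all lengths 6.27% of exons rose and 6.52% fell. Without the exons under both labels 18 of 171 were called (10 rose, 8 fell), against 13.3% of 661 exons (6.35% rose, 6.96% fell), and all 18 were among the 20. With *smg-1* replicate 1, 2 or 3 left out, 12, 11 and 9 short exons were called. In *smg-2* 12 of 139 short exons were called, 7 that rose and 5 that fell, 11 of them of 31 to 60 nt, where 6.83% of all exons rose and 8.23% fell. With the exons under both labels included, 14 of 161 were called, against 14.1% of 619 exons (6.62% rose, 7.43% fell). The shares for short exons as a whole were thus near or below those for all lengths.

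Calls lay mostly in non-triplet exons. Of 37 short non-triplet exons 15 were called in *smg-1* (40.5%), against 5 of 156 triplet exons (3.21%). At 31 to 60 nt 14 of 29 non-triplet exons were called (48.3%), while 59 of 287 longer non-triplet exons were (20.6%). In *smg-2* 8 of 23 short non-triplet exons were called (34.8%), as were 54 of 150 longer ones (36.0%) and 4 of 116 short triplet exons. Among exons with a WT mean PSI of 5% to 95%, 8 of 158 short exons were called in *smg-1* (5.06%), against 6.94% of 576 exons of all lengths, and 5 of 125 in *smg-2* (4.00%), against 7.64% of 419. Exons outside that range could change in 1 direction only, as mutant means were limited. They were 14 of 29 non-triplet and 18 of 103 triplet exons of 31 to 60 nt, and 122 of 287 longer non-triplet exons. Calls within the range were not counted by frame, so the contrasts by frame hold this effect. Without the exons under both labels 14 of 33 short non-triplet exons were called in *smg-1*, 13 of 27 of them at 31 to 60 nt, and 4 of 138 short triplet exons.

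**Figure D3:**
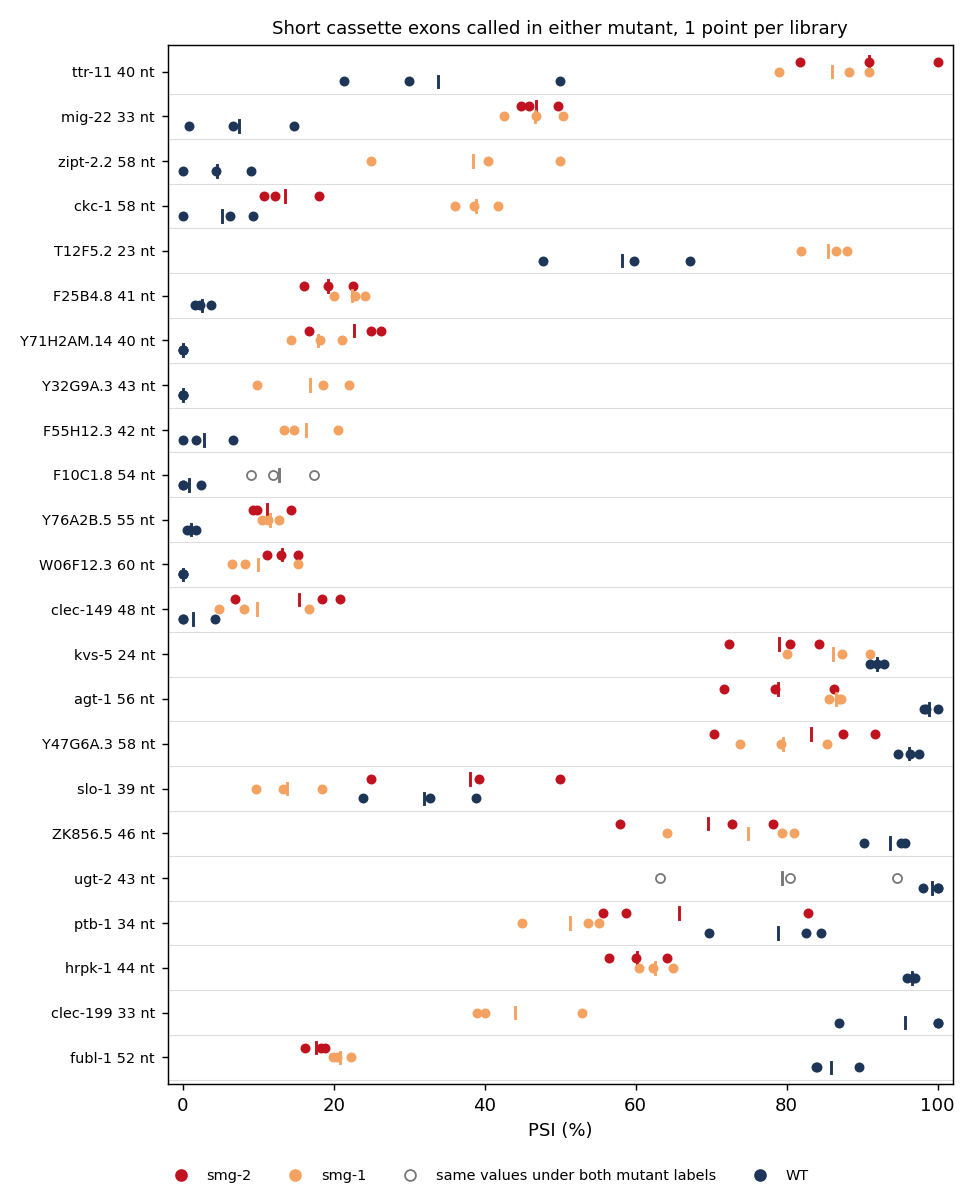
PSI (%) in each library for the 23 short exons called in *smg-1* or *smg-2*, ordered by their *smg-1* change. Points are libraries, vertical ticks are group means, and open circles are values that stand under both mutant labels. *fubl-1* at the bottom has 16.2% to 22.3% in the mutants and 83.9% to 89.6% in WT.

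The exon with the largest fall in either mutant, in *fubl-1*, belongs to a gene of an RNA-binding protein. All 3 short exons in the list of RNA binding and splicing genes were non-triplet and of 31 to 60 nt, and all 3 fell in *smg-1* and 2 of them in *smg-2*. The list was chosen with earlier results of these data known, so its count is a description. In *fubl-1*, whose product resembles the KH-domain proteins that bind the far upstream element, the 52 nt exon had a PSI of 19.9%, 22.3% and 20.4% in *smg-1*, 18.8%, 16.2% and 18.3% in *smg-2*, against 83.9%, 84.0% and 89.6% in WT. The exon was thus mainly skipped in every mutant library and mainly included in every WT library. It fell by 65.0 points in *smg-1* (adjusted p = 0.00051) and by 68.1 points in *smg-2* (adjusted p = 0.000545, limma). Skipping it is predicted to end translation after 20 amino acids, against 589 with the exon.

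*hrpk-1* encodes the homologue of hnRNP K. Its 44 nt exon had 62.3%, 60.4% and 64.9% in *smg-1*, 60.1%, 64.1% and 56.4% in *smg-2*, against 96.8%, 95.9% and 97.0% in WT. Replicates varied by a few points, and the exon fell by 34.0 points in *smg-1* (adjusted p = 0.00051) and by 36.4 points in *smg-2* (adjusted p = 0.000545, limma). Without it 84 of 397 amino acids are predicted. *ptb-1* encodes the polypyrimidine tract binding protein, a splicing repressor. Its 34 nt exon had 45.0%, 55.2% and 53.7% in *smg-1*, 55.7%, 58.7% and 82.8% in *smg-2*, against 84.6%, 69.7% and 82.5% in WT. It fell by 27.7 points in *smg-1* (adjusted p = 0.025, limma), a call that was kept only without WT replicate 2 when libraries were left out in turn (highest adjusted p 0.106). In *smg-2* replicate 3, with 29 reads, reached WT values and the difference of −13.2 points did not pass (adjusted p = 0.492).

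Another 4 non-triplet exons fell in at least 1 mutant. In ZK856.5 the 46 nt exon had 79.4%, 64.2% and 81.0% in *smg-1*, 57.9%, 78.2% and 72.7% in *smg-2*, against 95.2%, 95.7% and 90.2% in WT. It fell by 18.8 points in *smg-1* (adjusted p = 0.0212) and by 24.1 points in *smg-2* (adjusted p = 0.0135, limma), with no overlap between either mutant and WT. The *smg-1* call was lost without any 1 of the *smg-1* libraries or WT replicate 1 (adjusted p up to 0.0693), and the *smg-2* call without WT replicate 1 (0.0644). Y47G6A.3, with a 58 nt exon, averaged 79.5% ± 5.76 in *smg-1*, 83.2% ± 11.3 in *smg-2* and 96.2% ± 1.34 in WT (SD, n = 3 each), and fell in *smg-1* (adjusted p = 0.00585, limma). *agt-1*, which encodes a DNA alkyltransferase, averaged 86.6%, 78.8% and 98.9% at its 56 nt exon in *smg-1*, *smg-2* and WT, and fell in both mutants (adjusted p = 0.00098 and 0.0013, limma). The 43 nt exon of *ugt-2*, a UDP-glucuronosyltransferase gene, averaged 79.4% ± 15.7 under both mutant labels and 99.3% ± 1.13 in WT (SD, n = 3 each). It fell by 19.9 points (adjusted p = 0.0202, limma), a call lost without mutant replicate 1 or 3 or WT replicate 1 or 3, with a highest adjusted p of 0.0948.

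The exons that rose were for the most part nearly absent in wild-type. No listed exon had a mean below 5.03% in *smg-1* or 5.39% in *smg-2*, so those below 5% in WT could only be higher. Their adjusted p here and in the next paragraphs is therefore no test of direction. Likewise an exon above 95% in WT, such as those of *hrpk-1* and *agt-1* above, could only be lower. In *mig-22*, a gene of chondroitin synthesis needed for cell migration, the 33 nt exon is triplet but carries an in-frame stop, with 176 amino acids predicted against 804 without it. Its PSI was 46.8%, 42.6% and 50.4% in *smg-1*, 49.7%, 44.8% and 45.9% in *smg-2*, against 14.8%, 0.81% and 6.67% in WT. It rose by 39.2 points in *smg-1* (adjusted p = 0.0308) and by 39.4 points in *smg-2* (adjusted p = 0.029, limma). Groups were far apart, but with 2 libraries in a group the adjusted p reached 0.124, and each call was kept only without WT replicate 1 or WT replicate 2.

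Y71H2AM.14 was listed at 0% in all 3 WT libraries, with only 6, 3 and 10 reads there. Its 40 nt exon had 21.1%, 14.3% and 18.2% in *smg-1* and 16.7%, 25% and 26.3% in *smg-2*, and rose in both (adjusted p = 0.00051 and 0.000545, limma). The isoform with it is predicted to give 40 amino acids, against 319 without it. Here and in the next paragraphs, WT values of 0% entered the fit as 1%. Where all 3 were 0%, WT thus had no spread in the fit, which did not weigh reads. In Y76A2B.5, annotated as *mmad-1*, the 55 nt exon was covered by 246 to 1551 reads per library. Its PSI was 10.5%, 12.8% and 11.3% in *smg-1*, 9.82%, 14.3% and 9.35% in *smg-2*, against 1.00%, 0.58% and 1.69% in WT, a rise of 10.5 points (adjusted p = 0.001) and 10.1 points (adjusted p = 0.00174, limma). Both lie next to the threshold of 10 points, and leaving out *smg-1* replicate 2, *smg-2* replicate 2 or WT replicate 2 brought one or the other under it. An in-frame stop in the exon leaves 24 of 283 amino acids.

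In *clec-149*, a C-type lectin gene, the 48 nt exon averaged 9.86% ± 6.14 in *smg-1*, 15.4% ± 7.47 in *smg-2* and 1.42% ± 2.46 in WT (SD, n = 3 each), and rose in *smg-2* (adjusted p = 0.0267) but did not pass in *smg-1* (adjusted p = 0.07, limma). The call was kept only without *smg-2* replicate 1 or WT replicate 3 (adjusted p up to 0.108). W06F12.3, with a 60 nt exon at 0% in all 3 WT libraries, had 6.52%, 8.25% and 15.2% in *smg-1*, and averaged 13.1% in *smg-2*. It rose in *smg-2* (adjusted p = 0.000556, limma), although no premature stop is predicted, and in *smg-1* lay under the threshold of 10 points before rounding. For F55H12.3 the 42 nt exon averaged 16.3% in *smg-1* and 2.83% in WT, with a stop in the exon, and rose (adjusted p = 0.0314, limma), a call kept only without WT replicate 2 or 3 (adjusted p up to 0.118). The 54 nt exon of F10C1.8 averaged 12.8% under both mutant labels and 0.813% in WT, and rose (adjusted p = 0.00438, limma), but by only 9.68 points without mutant replicate 3. An exon that passed the test of p but not the threshold of size was the 49 nt exon of F56A8.3, at 5.81%, 6.02% and 7.65% in *smg-1*, 2.53%, 6.29% and 8.63% in *smg-2*, against 0%, 0% and 0.13% in WT (adjusted p = 0.00114 in *smg-1*, limma).

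Of the exons that rose, 2 lie in the 5′ UTR and have no predicted effect on the protein. *zipt-2.2* encodes a ZIP-family zinc transporter, and its 58 nt exon had 40.4%, 25% and 50.0% in *smg-1* and 4.35%, 0% and 9.09% in WT, at 4 to 52 reads (adjusted p = 0.0211, limma). This rise was lost without any 1 of the *smg-1* libraries, with adjusted p up to 0.0983. The 43 nt exon of Y32G9A.3 had 9.80%, 18.6% and 22.0% in *smg-1* and 0% in all 3 WT libraries, which had only 10, 4 and 8 reads (adjusted p = 0.001, limma). Neither was listed for *smg-2*.

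Besides W06F12.3, a further 3 coding exons rose although no premature stop is predicted with or without them. *ttr-11* belongs to the transthyretin-related family, and its exon of 40 nt had 88.2%, 79.0% and 90.9% in *smg-1*, 90.9%, 81.8% and 100% in *smg-2*, against 21.4%, 50.0% and 30% in WT. Coverage was 4 to 22 reads per library where totals were known, and the rise was 52.2 points in *smg-1* (adjusted p = 0.0064) and 57.1 points in *smg-2* (adjusted p = 0.024, limma). The *smg-2* call was lost without *smg-2* replicate 1, WT replicate 1 or WT replicate 3 (adjusted p up to 0.0992). F25B4.8 had better coverage at its 41 nt exon, 49 to 343 reads, with 24.2%, 20.1% and 22.8% in *smg-1*, 19.3%, 16% and 22.5% in *smg-2*, against 2.25%, 1.56% and 3.68% in WT. It rose in both (adjusted p = 0.0016 and 0.00252, limma). A stop in this exon shortens the protein to 103 amino acids, against 129, but lies too near the last junction to count as premature by the rule used. The 58 nt exon of *ckc-1*, which encodes a choline kinase, had 36.0%, 38.6% and 41.7% in *smg-1* and 9.28%, 0% and 6.29% in WT, and rose by 33.6 points (adjusted p = 0.0211, limma). That call was lost without any 1 of the *smg-1* libraries (adjusted p up to 0.0955).

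Predicted reading frames of the 181 coding short exons went with direction, which limits on mutant PSI fixed in part, as given below. A stop was counted as premature when it lay more than 55 nt upstream of the final junction complex, taken to sit 25 nt before the last junction. For 16 exons it is predicted only with the exon included, and in *smg-1* 14 of them were higher than in WT, 6 rose and none fell, with a median change of 7.49 points. For 8 exons it is predicted only with the exon skipped, and all 8 were lower, 6 of which fell, with a median of −19.4 points. For the other 157 exons 85 were higher and 72 lower, 3 rose and 2 fell, and the median was 0.54 points. Over exons of all lengths the same 3 kinds gave 39 rises and no fall among 110, 34 falls and no rise among 123, and 6 rises and 10 falls among 466. Without the exons under both labels the short exons gave 5 rises among 14, 5 falls among 7, and 3 rises and 2 falls among 142.

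The limits on mutant PSI fix part of these directions. Of the 16 exons, 11 had a WT mean below 5% and so could only be higher in *smg-1*, and of the 8, 3 had a WT mean above 95%. Over exons of all lengths 73 of the 110 had a WT mean below 5%, and 66 of the 123 had one above 95%. The remaining 5 of the 16 were T12F5.2 and *mig-22*, which rose, and *tnt-3*, *egl-13* and *sad-1*, which differed by −0.64, −0.93 and 0.867 points. *sad-1* encodes a kinase of neuronal polarity and *egl-13* a SOX transcription factor. In *smg-2*, 4 of 8 exons with the stop on inclusion rose and none fell, 3 of 6 with the stop on skipping fell and none rose, and 3 rose and 1 fell among 122 with neither. The corresponding median changes were 10.7, −18.7 and 2.15 points. A WT mean below 5% was found for 5 of these 8 exons and one above 95% for 2 of these 6, which fixed their direction too. The exon of *sad-1* went the other way there, with 24.4% in *smg-2* and 39.1% in WT (adjusted p = 0.267).

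**Figure D4:**
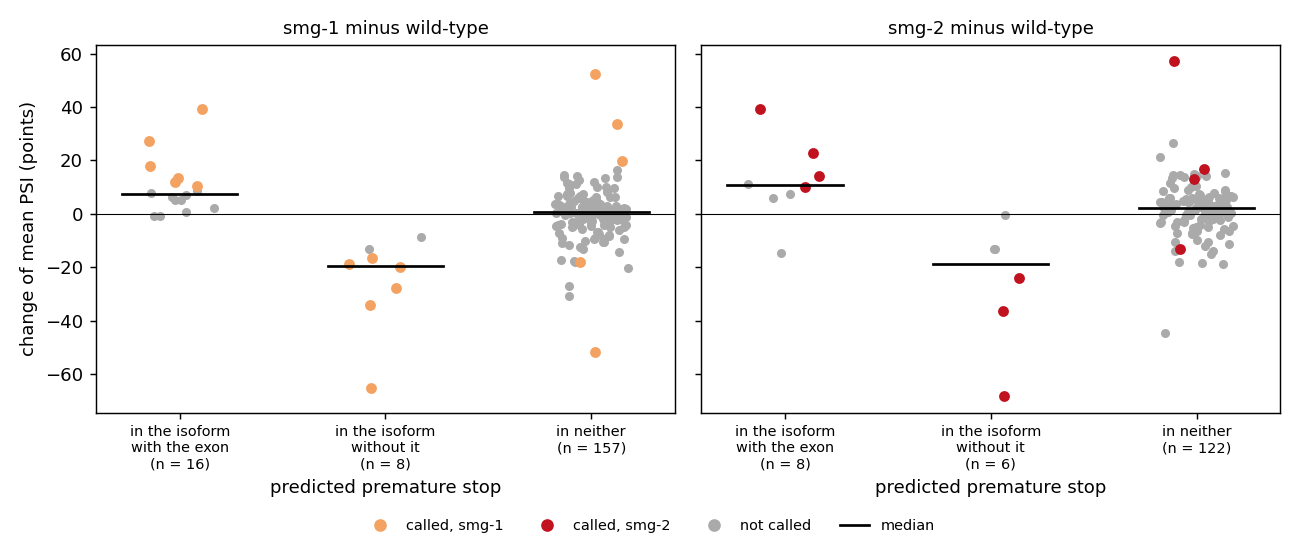
Change of mean PSI in points, *smg-1* minus WT on the left and *smg-2* minus WT on the right, for coding short exons grouped by the isoform with a predicted premature stop. Each point is an exon, black bars are medians and coloured points are called exons. In *smg-1* the medians are 7.49, −19.4 and 0.54 points. There the limits on mutant PSI fixed the direction of 11 of 16 exons in the first group and 3 of 8 in the second.

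In 2 triplet exons without any stop inclusion fell in *smg-1*. One was the 39 nt exon of *slo-1*, a calcium-activated potassium channel that dampens transmitter release, shown here with its flanking intron ends.
*slo-1* 39 nt exon, chrV:18502068-18502106, plus strand: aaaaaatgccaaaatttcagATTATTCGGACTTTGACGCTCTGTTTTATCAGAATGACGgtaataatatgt
Its PSI was 9.76%, 18.4% and 13.3% in *smg-1*, 39.3%, 25% and 50.0% in *smg-2*, against 32.8%, 38.9% and 23.9% in WT. *smg-2* overlapped with WT and *smg-1* did not, but with adjusted p = 0.0494 in limma the fall was next to the threshold and was kept only without WT replicate 3. The other was in *clec-199*, a C-type lectin gene with 3 short triplet exons that are rich in AC dinucleotides (8, 9 and 12 of them) and poor in G (6.67%, 9.09% and 4.76%).
*clec-199* 30 nt exon, chrIV:17353527-17353556, plus strand: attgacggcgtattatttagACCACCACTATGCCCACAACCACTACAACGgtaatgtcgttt
*clec-199* 33 nt exon, chrIV:17354408-17354440, plus strand: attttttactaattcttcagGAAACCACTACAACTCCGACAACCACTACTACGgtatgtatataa
*clec-199* 42 nt exon, chrIV:17356906-17356947, plus strand: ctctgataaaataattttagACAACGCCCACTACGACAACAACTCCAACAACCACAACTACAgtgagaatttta
The 33 nt exon had 39.0%, 40.0% and 52.9% in *smg-1* and 87.0%, 100% and 100% in WT, and fell by 51.7 points (adjusted p = 0.012, limma). This call was lost without any 1 of the *smg-1* libraries, with adjusted p up to 0.0587. The WT mean of this exon, 95.7%, lay above the highest *smg-1* mean of any listed exon, 95%. The exon could thus only be lower, and its adjusted p is no test of direction. Read totals were not known for the WT libraries at 100%. The 30 nt exon had a mean of 52.1% in *smg-1*, 56.0% in *smg-2* and 42.5% in WT, and the 42 nt exon one of 27%, 39.0% and 30.1% in the same order, with neither called. Since these exons resemble each other, junction reads of one could be placed at another, which was not tested.

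The mutants were also set against each other over exons with values of their own in both. None of the 139 short exons was called in *smg-2* against *smg-1*, and the share over 498 exons was 0.00% (limma), with 16 short exons at an unadjusted p under 0.05. Among the same 139 exons the *smg-1* comparison held 13 calls and the *smg-2* comparison 12, and 9 exons were called in both with the same direction. Both comparisons use the same WT libraries, so this count is not independent. The smallest p was that of *ckc-1*, with 18%, 12.2% and 10.7% in *smg-2* and 36.0%, 38.6% and 41.7% in *smg-1*. The groups did not overlap, and the difference was −25.1 points (logit difference −1.41 ± 0.23 SE, adjusted p = 0.258), which passed only when libraries were weighted by their reads (adjusted p = 0.0382). For *slo-1* the difference was 24.3 points (adjusted p = 0.366). The 30 nt exon of *cdgs-1* had 21.9%, 17.6% and 16% in *smg-2* and 9.78%, 6.85% and 6.55% in *smg-1* (adjusted p = 0.366). With 3 libraries a group these tests do not show that the mutants act alike.

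Short exons were also counted by gene list. Of the 193 exons, 53 fall in at least 1 of 8 gene lists, 22 of them microexons. The list of neuronal excitability and synapse had 6 microexons with no call and 12 exons of 31 to 60 nt, of which *slo-1* fell in *smg-1*, and none passed in *smg-2*. All but 1 of these 18 exons are triplet, and 5.68% of triplet exons of all lengths were called in *smg-1*, so 1 call in 18 is near that share. The list leaves out the potassium channel genes *kvs-1*, *kvs-2*, *kvs-4* and *kvs-5*, and the *kvs-5* microexon was called in *smg-2*. In this list the 9 nt exon of *unc-13* averaged 73.7% ± 4.12 in *smg-1*, 77.7% ± 6.74 in *smg-2* and 80.5% ± 2.08 in WT (SD, n = 3 each). The 12 nt exon of *tom-1*, a tomosyn that inhibits vesicle priming, averaged 27.1% ± 7.73, 24.5% ± 4.60 and 26% ± 8.78 in the same order. *unc-68*, the ryanodine receptor, had a 42 nt exon at 9.10% in *smg-1*, 14.2% in *smg-2* and 7.36% in WT. None of these passed the test in either mutant (adjusted p 0.333 to 0.941, limma).

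The muscle list had 3 microexons and 4 longer short exons and no call. The 33 nt exon of *deb-1*, which encodes vinculin, averaged 78.5% in *smg-1*, 81.4% in *smg-2* and 81.8% in WT, and the 30 nt exon of *unc-96* averaged 10.1%, 12.2% and 9.14%. No exon was called among 9 in the list of cytoskeleton and adhesion, 7 in that of signalling, 6 in that of extracellular matrix and 2 in that of transcription factors. The last list leaves out *egl-13*, named above as a SOX transcription factor, whose exon was called in neither mutant. The *vab-10* exon counts in both the cytoskeleton and the matrix list. Nearly all exons of these lists and of the muscle list are triplet. Among triplet exons of all lengths 5.68% were called in *smg-1* and 4% in *smg-2*, so no call in lists this small is near those shares. The 15 nt exon of *spc-1*, alpha-spectrin, was at 9.57% ± 0.75 in *smg-1*, 9.25% ± 0.821 in *smg-2* and 9.03% ± 1.22 in WT (SD, n = 3 each). Among 4 exons of membrane transport genes *zipt-2.2* rose. Short exons with the most reads outside these lists did not pass in either mutant unless named above. The 57 nt exon of *grl-7*, a ground-like gene, averaged 82.7% in *smg-1*, 76.7% in *smg-2* and 81.2% in WT, and the 51 nt exon of *ifb-2*, an intermediate filament of the intestine, 53.4%, 58.8% and 58.3%.

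Sequence features that the choice by length did not use differed between length classes, given here as shares of exons without a test. Both isoforms were annotated for 78.7% of microexons, 63.6% of 31 to 60 nt exons and 43.5% of longer exons. Of the microexons 60 of 61 lie in coding sequence, and 26, 16 and 18 of these begin in phase 0, 1 and 2. An in-frame stop occurred in 3 of the 60 (5.0%), in 18 of 121 coding exons of 31 to 60 nt (14.9%) and in 20.2% of longer ones. The intron upstream had a median length of 98 nt for microexons, 126 nt for 31 to 60 nt and 237 nt for longer exons, and was under 100 nt for 50.8%, 43.9% and 24.3%. Downstream introns had medians of 274 nt, 263 nt and 280 nt. The 3′ splice site of the upstream intron ended in TTTCAG for 26.2%, 24.2% and 22.6% of exons.

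The 5′ splice site after the exon began with GTAAGT, which pairs best with U1 snRNA, for 18 of 61 microexons (29.5%), 12.1% of 31 to 60 nt exons and 5.43% of longer exons. All 18 microexons were triplet, as in *clp-1* above, and none of the 8 non-triplet microexons had this site. Binding motifs of *C. elegans* splicing factors were counted on the transcribed strand within 100 nt of intron on each side, or in the whole intron where it was shorter. GCATG, bound by ASD-1 and FOX-1, lay downstream of 12 microexons (19.7%), among them those of *unc-44*, *unc-22*, *rme-1* and *aqp-2*, and of 12.9% of 31 to 60 nt exons, including *slo-1* and *dys-1*, against 11.6% of all exons. CTAAC, bound by ASD-2 and GLD-1, was downstream of 14.8%, 12.1% and, for all exons, 10.4%. TAAGTT, given for EXC-7, was downstream of 31.1% of microexons and 9.08% of all exons, but overlaps with GTAAGT. Without the first 7 nt of the intron its shares were 3.28% and 3.20%. GTGTG, of SUP-12, was upstream of no microexon and of 6.39% of all exons, and GTTGTG, of UNC-75, of 1.64% and 4.09%. On the other side, GCATG was upstream of 3.28% of microexons and 8.31% of all exons, CTAAC of 6.56% and 11.5%, TAAGTT of 6.56% and 7.8%. Downstream, GTGTG had 6.56% and 11.8%, and GTTGTG 6.56% and 5.75%. Upstream introns were under 100 nt for 50.8% of microexons and 29.7% of all exons, so less sequence was searched there. Its effect on these shares was not tested.

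**Figure D5:**
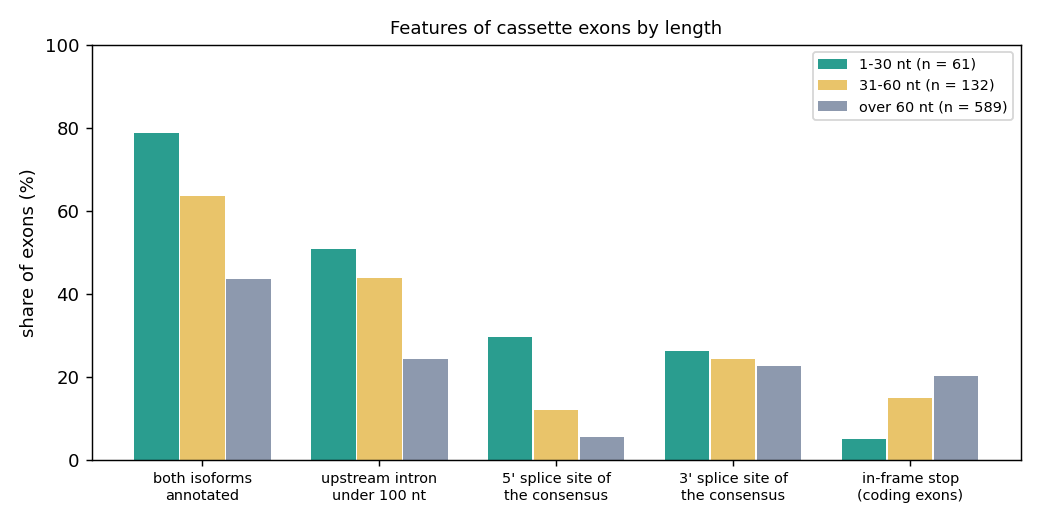
Share of exons (%) with both isoforms annotated, an upstream intron under 100 nt, the 5′ splice site and 3′ splice site sequences named in the text, and an in-frame stop, for microexons, 31 to 60 nt exons and longer exons. The 5′ splice site bars stand at 29.5%, 12.1% and 5.43%.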

How the data were processed

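The authors aligned the reads with STAR and measured splicing with JUM, requiring at least 5 junction reads per event. Usage was deposited by the authors as the fraction of an event's junction reads that skip the exon, and PSI was taken as the rest. The read counts were deposited as reads over the skipping junction. Totals, as count over usage, were whole numbers (within a share of 6e-05) in 100% of cells only with the mutant and WT labels of the counts exchanged (26.8% and 25.9% as given). The usage columns labelled WT were equal in the *smg-1* and *smg-2* tables over 620 exons, as were the count columns labelled as mutant. The usage labels were therefore kept, and every direction rests on them. The p-value, q-value and PSI change score columns deposited by the authors hold their own comparisons and were not used.

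PSI was limited to 1% to 99%, and its logit was fitted in limma 3.58.1 under R 4.3.3 (functions lmFit, eBayes), 3 mutant against 3 WT libraries, over 782 exons for *smg-1* and 498 for *smg-2*. P-values were adjusted over all exons (Benjamini-Hochberg) and are two-sided. Errors are SD over the libraries, which the study's methods call biological replicates. Both isoforms were assembled in silico from a coding transcript of WBcel235 (Ensembl release 115). Exons were named if called, if non-triplet microexons, if among the 10 with the most reads in a length class, if in genes the study names, or as examples of the 8 gene lists; *cdgs-1*, *egl-13*, *sad-1*, C30D11.5, *kvs-1*, *frpr-9* and exons that share a gene were added after their values were seen. Members and lists were chosen with earlier results of these data known. Alternatives were other thresholds, limits of PSI, halved inclusion, a minimum of 20 reads, weights, a trend, untransformed PSI, a replicate block and left-out libraries. Those chosen after seeing the data were WT PSI of 5% to 95%, the exons under both labels left out or added, and motif windows without 7 nt. Python 3.11.15 was used for other steps.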

Additional observations from a re-analysis of the deposited data

How the results depend on the processing

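The number of short exons called in *smg-1* was 20 and became 9 with a threshold of 20 points, 10 with an adjusted p under 0.01, 13 with PSI limited at 0.1% from each end, 8 among exons with a WT mean PSI of 5% to 95%, and 9 to 22 with a library left out (limma), the lower counts of 12, 11 and 9 being those without *smg-1* replicate 1, 2 or 3. In *smg-2* 12 became 7 at 20 points, 7 at an adjusted p under 0.01, 5 at a WT mean PSI of 5% to 95%, and 8 to 11 with a library left out. For *smg-2* against *smg-1* the weighted fit called 1 short exon, *ckc-1*, and every other alternative called 0. The cause of these shifts was not tested. No call of a named exon turned its direction, 8 of 20 calls in *smg-1* and 6 of 12 in *smg-2* were kept with each library left out in turn, and 5 and 4 under all alternatives tried for single exons. The median WT PSI difference of −7.47 points became −9.07 with at least 20 reads, −5.55 with halved inclusion, −9.05 with a microexon limit of 27 nt, and −7.21 to −4.34 with a WT library left out. The share of non-triplet microexons was 13.1% and ran from 10% (5 of 50, limit of 27 nt) to 17.0% (8 of 47, WT PSI of 10% to 90%). Deviations of same-numbered mutant and WT replicates had r of 0.0854, 0.0282 and −0.0489 in *smg-1* and −0.00924, 0.119 and 0.157 in *smg-2*. For different-numbered replicates the lowest r was −0.119 and the highest 0.0701 in *smg-1*, against −0.215 and 0.0862 in *smg-2*. As each group holds only 3 libraries, these values cannot decide whether replicate numbers pair the samples. With the replicate block 14 exons were called in *smg-1*, 11 in *smg-2* and 0 in *smg-2* against *smg-1*. Exons with few reads, such as that of *kvs-4* at 8 to 27 reads, have PSI values in coarse steps.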
